A study of Rattus norvegicus with 10 samples.

Results

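The genes described here belong to the Atg8 system of autophagy, and 10 of them were listed: Gabarapl1, Gabarap, Gabarapl2, Map1lc3a, Map1lc3b, Atg7, Atg3, Atg5, Becn1 and Sqstm1. Transcript signals come from the NTS (nucleus tractus solitarii), a nucleus of the brainstem that receives baroreceptor and other visceral afferents, in 5 arrays of the spontaneously hypertensive rat (SHR) and 5 arrays of the normotensive Wistar-Kyoto rat (WKY). All animals were male and 10 to 13 weeks old, and the labels give neither strain a treatment or an engineered allele. Labels speak of 5 animals for a sample, whereas the design text calls a chip a single biological replicate, so pooling of animals is unclear. The p-values therefore measure the spread between these samples. Genes were represented by every probe set of the Affymetrix Rat 230 2.0 array whose annotation names a member as its only symbol, which gave 17 of 31042 probe sets and covered 8 of the 10 genes, among 14217 genes with such a probe set on the array. Gabarapl2 and Map1lc3b had no such probe set: 3 probe sets name one of them together with Gabarapl3 or Map1lc3b2, which the RefSeq table of assembly GRCr8 lists as pseudogenes, and these are not reported. The members were chosen by function and also on their strain differences, since Gabarapl1 was selected on probe sets that move in opposite directions. Their differences between the strains are therefore descriptions with no test.

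In autophagy, a double membrane closes around cytoplasm and fuses with the lysosome. Small ubiquitin-like proteins, the LC3 and GABARAP subfamilies related to yeast Atg8, are attached to a lipid of that membrane. Atg7 activates them, Atg3 transfers them, and a complex of Atg5 with Atg12 and Atg16l1 directs them to the membrane, where receptors such as Sqstm1 (p62) bind them and bring in cargo. In neurons, which do not divide, this route clears proteins and organelles, and GABARAP was first described as a partner of the GABA-A receptor.

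The bases before the annotated start of Gabarapl1 are shown because it is the member whose signals differed between the strains, and those of Gabarap because it is a close relative whose signals did not stand apart. Both come from RefSeq on GRCr8, a reference from a different strain (BN), and run 5′ to 3′ on the strand of the gene. The window of Gabarapl1 lies at chr4:164666082-164666331 (plus strand) and that of Gabarap at chr10:55213215-55213464 (plus strand), each a window of 250 bases that ends just before the start. Capitals mark a match, on the opposite strand, to TGACNNNGC, the core of the antioxidant response element.
Gabarapl1: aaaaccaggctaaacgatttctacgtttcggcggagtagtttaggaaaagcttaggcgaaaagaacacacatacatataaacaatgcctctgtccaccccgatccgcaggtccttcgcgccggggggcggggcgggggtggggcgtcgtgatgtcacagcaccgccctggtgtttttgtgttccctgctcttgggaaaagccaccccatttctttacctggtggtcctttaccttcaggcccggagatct
Gabarap: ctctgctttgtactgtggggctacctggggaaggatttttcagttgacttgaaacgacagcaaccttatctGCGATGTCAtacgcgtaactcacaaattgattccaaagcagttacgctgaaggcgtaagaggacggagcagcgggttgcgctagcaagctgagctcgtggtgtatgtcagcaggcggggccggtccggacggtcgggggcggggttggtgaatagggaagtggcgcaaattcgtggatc
Upstream windows of 8 members were in the table, those of all but Becn1 and Map1lc3a. Of these 8, 2 held CACGTG, the E-box core that TFEB and other factors read, namely Atg3, at 39 and 16 bases before the start, and Atg5, at 19. GTAAACA, a forkhead site, was in 0 of the 8, and TGACNNNGC in 1, that of Gabarap. Both strands were searched in every window. Over all 33469 windows of this length, 5.59% held CACGTG, 3.21% GTAAACA and 10.1% TGACNNNGC. The window of Gabarapl1 held none of these motifs, which describes this stretch only.

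Across the series, arrays resembled each other closely, with a mean correlation to the other arrays of 0.962 to 0.977. Median signals of the arrays were 44.2 to 49.8 in SHR and 39.6 to 45.7 in WKY, although all arrays share 1 trimmed mean. SHR 2 and SHR 3 had the highest medians and WKY 4 and WKY 5 the lowest. In a limma fit of strain over the 18846 probe sets that passed a filter on low signals, 803 passed a Benjamini-Hochberg adjusted p of 0.05. That is 4.26% of those tested, 2.06% higher and 2.20% lower in SHR. The count was 510 without SHR 2, 452 without WKY 4, 450 without WKY 5 and 209 once array median signal entered the fit as a covariate. Of 8 genes listed for the NTS and dorsal medulla, 6 were on the array and passed the filter, among them Th, the tyrosine hydroxylase gene (416 ± 19.1 in SHR, 477 ± 67.8 in WKY, SD, n = 5 each). None of the 3 forebrain markers on the array passed the filter, whereas 2 of 3 cerebellar and 4 of 6 choroid plexus markers did. Passing the filter does not show that a transcript was present.

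Gabarapl1 encodes a GABARAP-subfamily protein known for high expression in the central nervous system. On its brighter probe set, 1371680_at, the signal was 1659, 1623, 1726, 1498 and 1658 in SHR 1 to 5, against 966, 974, 911, 1019 and 1029 in WKY 1 to 5. All 5 SHR arrays lay above all 5 WKY arrays, and the lowest SHR array was well above the highest WKY array. The mean was 1633 ± 83.9 in SHR and 979.8 ± 47.5 in WKY (SD, n = 5 each), and SHR was 1.66-fold above WKY (log2 difference 0.73 ± 0.056, SE). Fold changes and log2 differences are of log2(signal + 16), and signals are linear.

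On the dimmer probe set, 1378842_at, the order was turned round. Its signal was 182, 203, 171, 186 and 219.7 in SHR 1 to 5, against 248, 241, 267, 272 and 341 in WKY 1 to 5. The highest SHR array was below the lowest WKY array, with WKY 5 the highest of the 10. The mean was 192 ± 19.0 in SHR and 274 ± 39.8 in WKY (SD, n = 5 each), and WKY was 1.39-fold above SHR (log2 difference, SHR minus WKY, -0.47 ± 0.090, SE).

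**Figure D1:**
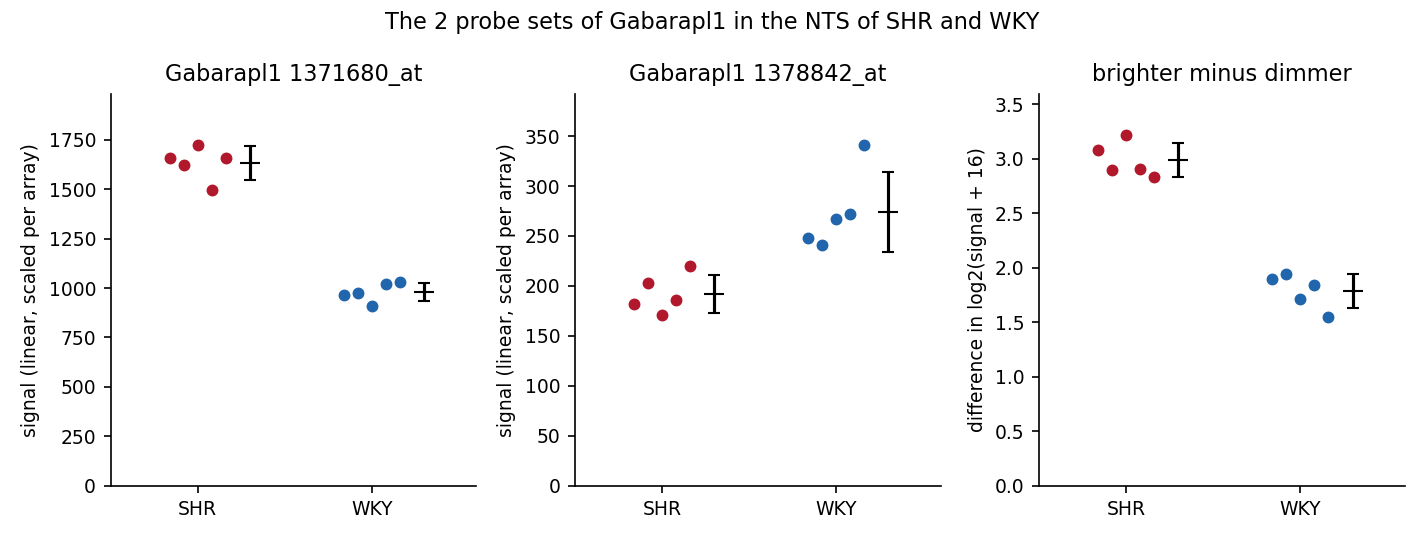
Linear signal of the 2 Gabarapl1 probe sets by array, and the difference between them within each array in log2(signal + 16) units, for SHR and WKY. Points are arrays and bars are the mean ± SD (n = 5 each); on 1371680_at SHR lies between 1498 and 1726 and WKY between 911 and 1029, while on 1378842_at SHR lies between 171 and 219.7 and WKY between 241 and 341.

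Within an array, the brighter minus the dimmer Gabarapl1 probe set was 3.08, 2.90, 3.22, 2.91 and 2.83 log2 units in SHR 1 to 5, against 1.90, 1.94, 1.71, 1.84 and 1.55 in WKY 1 to 5. The groups did not overlap, and the strains differed by 1.2 log2 units in this measure, with an SD of 0.16 in each strain. Since Gabarapl1 was selected on probe sets that move in opposite directions, this separation follows from the choice and adds no support. The linear ratio of the brighter to the dimmer probe set, which an array's scaling factor leaves as it is, was 7.55 to 10.1 in SHR and 3.01 to 4.04 in WKY. It cannot say which probe set follows the amount of Gabarapl1 transcript. Where on the transcript each probe set lies, and whether the strains differ in sequence under its probes, was not analysed here, so a signal here is a hybridisation signal and not an amount of transcript.

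Both Gabarapl1 probe sets were among those past the threshold of the fit over all kept probe sets, 1 higher and 1 lower in SHR. Of the 14 member probe sets kept by the filter, these 2 passed and these 2 had groups that did not overlap, beside 4.26% and 6.13% of all kept probe sets; since the contrast chose Gabarapl1, nothing is read from that share. By the size of the log2 difference, 1371680_at ranked 158 and 1378842_at ranked 639 of 18846. Opposite calls on probe sets of 1 gene were uncommon but not limited to Gabarapl1. Of 2566 genes with more than 1 kept probe set, 25 had more than 1 past the threshold, and in 9 of these the directions differed.

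As a description, the log2 difference of 1371680_at was 0.70 to 0.77 over 22 other settings. That of 1378842_at was -0.52 to -0.29, and with the median-signal covariate, where it was -0.29, it was not past the threshold. Since Gabarapl1 was selected on this contrast, these ranges describe the effect of processing and add no support to the differences. Once strain means were taken out, the log2 signal of 1378842_at had a Pearson r of -0.67 with the array median over the 10 arrays, and that of 1371680_at one of -0.38. The part of signal level in the difference of 1378842_at was not tested further.

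**Figure D2:**
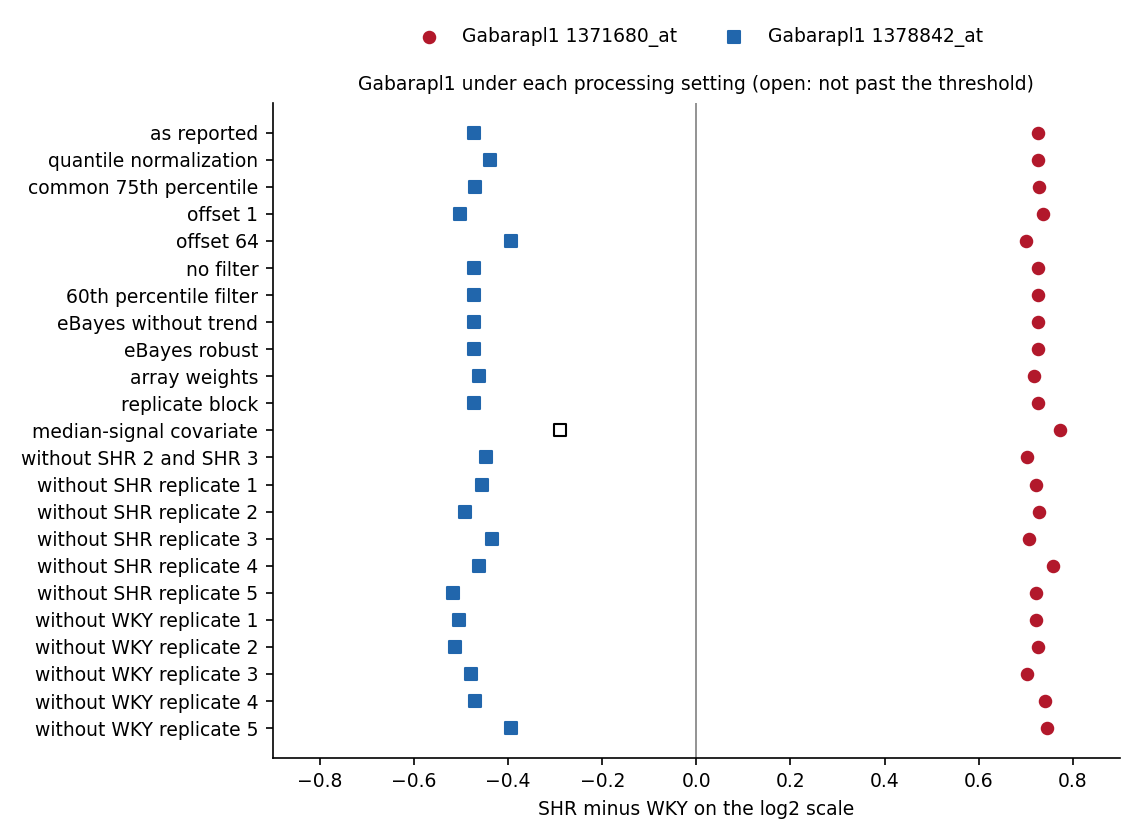
Log2 difference, SHR minus WKY, of both Gabarapl1 probe sets in the reported fit and in 22 other settings. The brighter probe set lies between 0.70 and 0.77 throughout; the dimmer one lies between -0.52 and -0.29, and the open symbol marks the covariate fit, in which it missed the threshold.

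Markers of some cell types, each read by its brightest kept probe set, also moved with strain. Over all 10668 genes read this way, 3.97% passed the threshold, 1.67% higher and 2.31% lower in SHR. The lists are short, and nothing is read from a count of 0 or 1 in them. Of 7 microglia and macrophage markers, 4 were lower (Aif1, C1qa, C1qb and Lyz2) and 0 higher in SHR, and the list's summed signal was 1109 to 1198 in SHR and 1396 to 1610 in WKY, without overlap. A dimmer Aif1 probe set ran the other way and did not pass (84.8 ± 28.1 in SHR, 53.7 ± 14.4 in WKY, SD, n = 5 each, log2 difference 0.51, against -0.52 on the brightest; limma, adjusted p = 0.124). Of 6 neuronal markers, 1 was higher, Snap25, the synaptic SNARE gene (3739 ± 536 in SHR, 2952 ± 299.7 in WKY, SD, n = 5 each; limma, adjusted p = 0.0480), and the list's sum was 8739 to 10183 in SHR and 7762 to 9084 in WKY. Of the 6 NTS markers, 2 were lower (Prlh and Tac1), with a sum of 2350.2 to 2573 in SHR and 2613 to 3441 in WKY. Choroid plexus markers were higher for 2 of 4 tested, Sostdc1 and Enpp2 (summed signal 858 to 1017 in SHR, 648 to 917 in WKY). Oligodendrocyte and endothelial markers had 1 lower each, Mobp of 5 and Vwf of 5, and astrocyte (6), ependymal (3), blood (1) and cerebellar (2) markers had 0 past the threshold. In both lists other genes ran the other way without passing. Log2 differences lay above 0 for 1 of the 5 oligodendrocyte genes, Mbp (0.281; limma, adjusted p = 0.0992). They did for 2 of the 5 endothelial genes, Pecam1 (0.396, without overlap; limma, adjusted p = 0.0851) and Tek (0.135; limma, adjusted p = 0.390). The log2 difference of Mobp was -0.34 on its brightest probe set (limma, adjusted p = 0.0126). On its dimmer kept probe sets it was -1.41 (limma, adjusted p = 9.68e-09) and -0.022 (limma, adjusted p = 0.925). The part of cell makeup in the Gabarapl1 values was not tested, and in such bulk tissue fewer cells of a type and less RNA per cell cannot be told apart.

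Gabarap, the founding member of the subfamily, overlapped between the strains on its brighter probe set, 1370804_at. It was 1202, 1211, 1131, 1283 and 1385 in SHR 1 to 5, against 1093, 1234, 1209, 1329 and 1348 in WKY 1 to 5. SHR and WKY covered much the same range, and the log2 difference was 0.001 ± 0.068 (SE). A dimmer Gabarap probe set, 1378279_at, had 40.9 to 51.9 in SHR and 38.5 to 48.8 in WKY, a log2 difference of 0.079 ± 0.11.

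Map1lc3a, which encodes an LC3 protein, was measured on a single probe set. Its signal was 1029, 1015, 797, 978 and 949.7 in SHR 1 to 5, against 981, 906, 917, 1183 and 1079 in WKY 1 to 5. The groups overlapped, with SHR 3 the lowest and WKY 4 the highest of the 10 arrays, and the log2 difference was -0.084 ± 0.082 (SE).

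The conjugation enzymes had overlapping groups. Atg7, the activating enzyme, had kept probe sets that differed by 0.058 ± 0.097 (1392744_at) and -0.145 ± 0.12 (1374128_at) on the log2 scale. On the brighter, 1392744_at, its signal was 89.1, 71.6, 70.2, 63.0 and 69.6 in SHR 1 to 5, against 76.0, 66.8, 62.8, 69.0 and 70.0 in WKY 1 to 5. SHR 1 lay above the WKY arrays, and the other SHR arrays lay within the WKY range. Atg3, the conjugating enzyme, had 326, 321, 336, 342 and 316 in SHR 1 to 5, against 335, 355, 365, 327 and 379 in WKY 1 to 5. All 5 SHR arrays of Atg3 lay below the WKY median, but the groups overlapped and the log2 difference was -0.096 ± 0.060 (SE).

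Atg5, part of the complex that directs conjugation, held the widest log2 difference among the members other than Gabarapl1. Its brighter probe set, 1385526_at, had 197, 231, 227, 250.2 and 190.1 in SHR 1 to 5, against 184, 208, 199, 176 and 188 in WKY 1 to 5. A dimmer one, 1373526_at, had 89.9, 73.9, 55.5, 65.9 and 78.3 in SHR 1 to 5, against 45.5, 66.3, 63.9, 47.4 and 51.6 in WKY 1 to 5. On both, all 5 SHR arrays lay above the WKY median while the groups overlapped. The log2 differences were 0.18 ± 0.080 and 0.32 ± 0.12 (SE), neither past the threshold of the fit nor in any of its 22 other settings.

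Becn1 (Beclin 1), a subunit of the lipid kinase complex that starts the membrane, had 431, 437, 463, 405 and 426 in SHR 1 to 5, against 416, 412, 402, 415 and 417 in WKY 1 to 5. The WKY values were the tightest of any kept member probe set, with a coefficient of variation of 1.48%. SHR 4 lay within the WKY range, SHR 1, 2, 3 and 5 above it, and the log2 difference was 0.065 ± 0.055 (SE).

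Sqstm1 was measured on 4 probe sets, of which 3 were kept. The brightest, 1371353_at, had 1470.3, 1689, 1585, 1480.2 and 1484 in SHR 1 to 5, against 1357, 1671, 1504, 1464 and 1513 in WKY 1 to 5, and the groups overlapped. Its log2 difference was 0.038 ± 0.063 (SE), and that of 1389381_at, at 216 to 285 in SHR and 217 to 265 in WKY, was 0.034 ± 0.078. On 1371221_at the signal was 50.3 to 92.2 in SHR and 44.1 to 70.7 in WKY, with a log2 difference of 0.27 ± 0.14, also with overlap. None of the 3 was past the threshold.

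**Figure D3:**
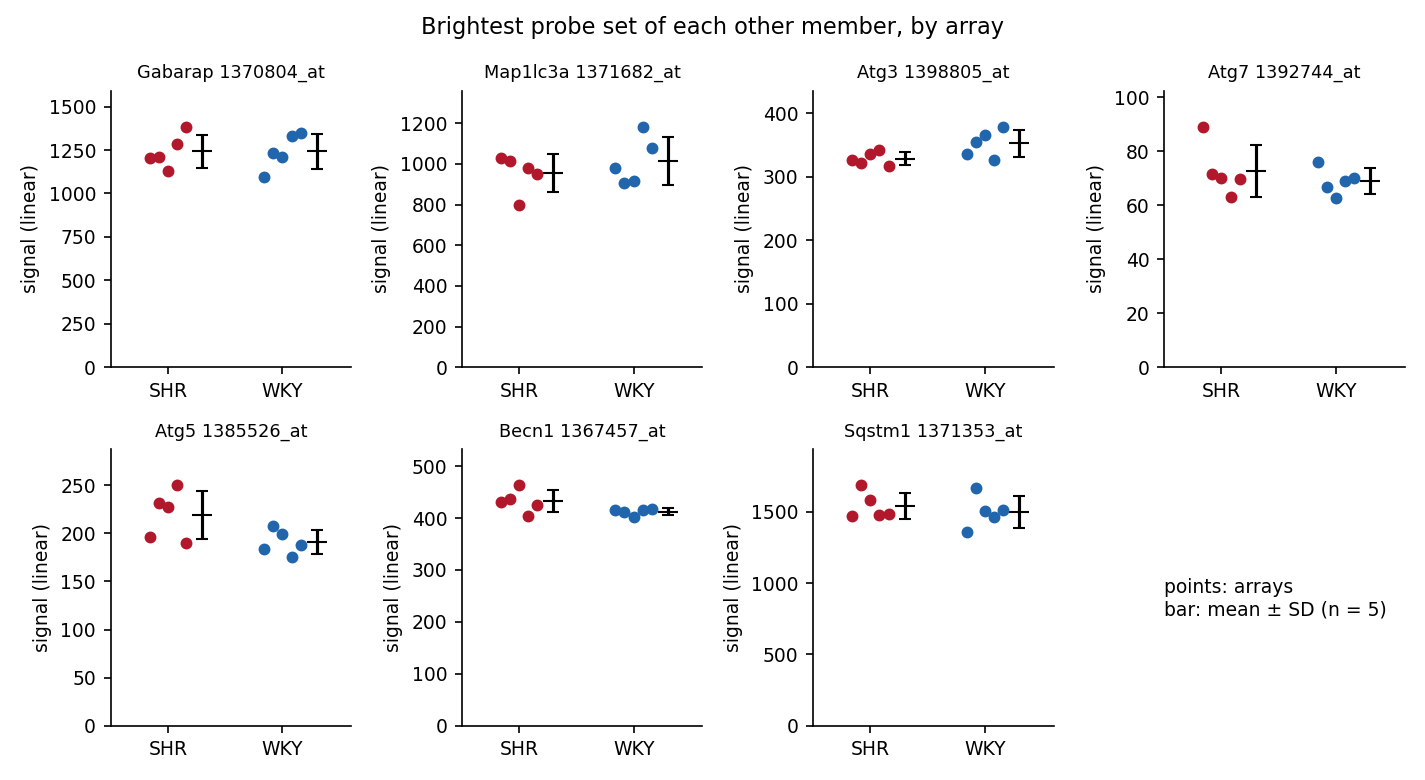
Linear signal of the brightest probe set of the 7 other measured members by array, for SHR and WKY, with the mean ± SD (n = 5 each). SHR and WKY overlap for each of the 7 genes, from Atg7 (63.0 to 89.1 in SHR, 62.8 to 76.0 in WKY) to Sqstm1 (1470.3 to 1689 in SHR, 1357 to 1671 in WKY).

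Outside Gabarapl1, 12 member probe sets were kept. On these, 0 were past the threshold and 0 had groups without overlap, beside 4.26% and 6.13% of all kept probe sets. With 12 probe sets, counts of 0 are near those shares, and nothing is read from them. Of the differences, 9 lay above 0 and 3 below, from -0.145 to 0.32. The median absolute log2 difference of the 14 kept probe sets was 0.090, beside 0.12 over all kept probe sets, and the median difference was 0.048, beside 0.016. Members with means of at least 200 in both strains varied by 1.48% to 11.6% within a strain on 7 probe sets, and the 5 with means below 100 in both by 7.01% to 22.7%. The 3 probe sets under the filter had signals of 16.3 to 29.3 in SHR and 17.1 to 26.1 in WKY for Atg5 (1396878_at), 4.82 to 29.99 in SHR and 13.1 to 25.3 in WKY for Atg7 (1394749_at), and 2.85 to 7.24 in SHR and 1.97 to 5.71 in WKY for Sqstm1 (1371220_at).

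**Figure D4:**
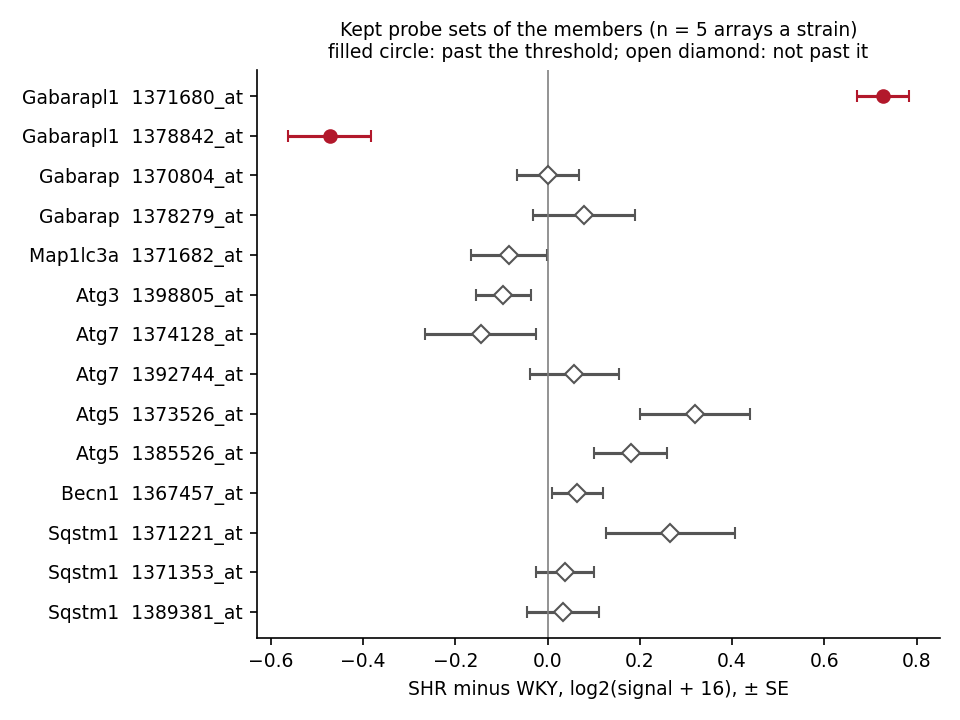
Log2 difference, SHR minus WKY, ± SE of the 14 kept member probe sets (n = 5 arrays a strain). Filled circles are past the threshold of the fit over all kept probe sets: 1371680_at of Gabarapl1 at 0.73 and 1378842_at at -0.47; the 12 open diamonds lie between -0.145 and 0.32.

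From array to array within a strain, pairs of member probe sets varied widely in how alike they were. With strain means taken out, Pearson's r over the 10 arrays ran from -0.78 to 0.80 among the 91 pairs of kept member probe sets, with a median of 0.05. The highest was that of Becn1 with 1371680_at of Gabarapl1, and the lowest that of Map1lc3a with 1371221_at of Sqstm1. The 2 Gabarapl1 probe sets had an r of 0.25. The range of r over pairs of other probe sets was not taken, so these values do not show whether the members move together. Among 13953 other kept probe sets with a gene name, those most like 1371680_at were of B4galt2 (r = 0.91), Zik1 (0.90) and Tango2 (0.90), and those most like 1378842_at were of Rom1 (0.96), Psmc2 (0.95) and Yme1l1 (0.93). These points share 10 arrays and their signal level, and the highest of so many values is high by selection.

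Around Gabarapl1, few transcripts could be compared. Of the 20 nearest genes in GRCr8, 10 on each side and mostly of the C-type lectin and killer-cell receptor families, 10 had a probe set of their own and 1 passed the filter. That gene, Clec1a, a C-type lectin receptor, differed by -0.001 ± 0.19 log2 units (limma, adjusted p = 0.998). This look at neighbours was chosen after the values were seen.

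Other genes of the autophagy pathway were followed in 9 lists of 111 genes, of which 97 had a kept probe set and were tested by the brightest one. In SHR, 2 rose (Pik3c3 and Lamp1) and 1 fell (Atg13), 3.09% of those tested. Over all 10668 genes measured this way, 3.97% passed, 1.67% higher and 2.31% lower in SHR, so the share is near that of all genes. An unadjusted limma p under 0.05 was seen for 17 of the 97, or 17.5%, below the 20.1% over all genes. Their median log2 difference was -0.031, beside 0.002 over all genes.

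Atg13, a scaffold of the ULK1 kinase complex that starts autophagy, had a signal of 113, 134, 153, 121 and 104 in SHR 1 to 5, against 222, 234, 213, 221 and 180.1 in WKY 1 to 5. The highest SHR array was below the lowest WKY array. The mean was 125 ± 19.3 in SHR and 214 ± 20.4 in WKY (SD, n = 5 each), a log2 difference of -0.71 ± 0.095 (SE; limma, adjusted p = 0.000239), and the call held in all 23 other settings. Atg13 has no second probe set here.

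Pik3c3, the lipid kinase that works with Beclin 1, had 118, 134, 115, 114 and 87.4 in SHR 1 to 5, against 75.7, 77.3, 74.3, 81.8 and 75.9 in WKY 1 to 5. All SHR arrays lay above all WKY arrays, SHR 5 the closest to them. The log2 difference was 0.47 ± 0.096 (SE; limma, adjusted p = 0.00855). Leaving out SHR 2 together with SHR 3, or adding the median-signal covariate, ended the call, the 2 exceptions among 23 other settings, over which the adjusted p ran from 0.00141 to 0.232.

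Lamp1, an abundant glycoprotein of the lysosomal membrane, had 1464, 1534, 1657, 1607 and 1433 in SHR 1 to 5, against 1112, 1393, 1195, 1352 and 1353 in WKY 1 to 5. The groups did not overlap, though SHR 5 and WKY 2 were close. Its log2 difference was 0.265 ± 0.068 (SE; limma, adjusted p = 0.0366), while its other kept probe set, at 39.5 in SHR and 29.5 in WKY, had 0.26 ± 0.14 (limma, adjusted p = 0.310). Dropping SHR 2, SHR 3, SHR 4, WKY 1, WKY 3, WKY 4 or WKY 5 ended the call, 7 of the 10 arrays. It ended in 12 of all 23 other settings, with adjusted p from 0.0272 to 0.196.

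**Figure D5:**
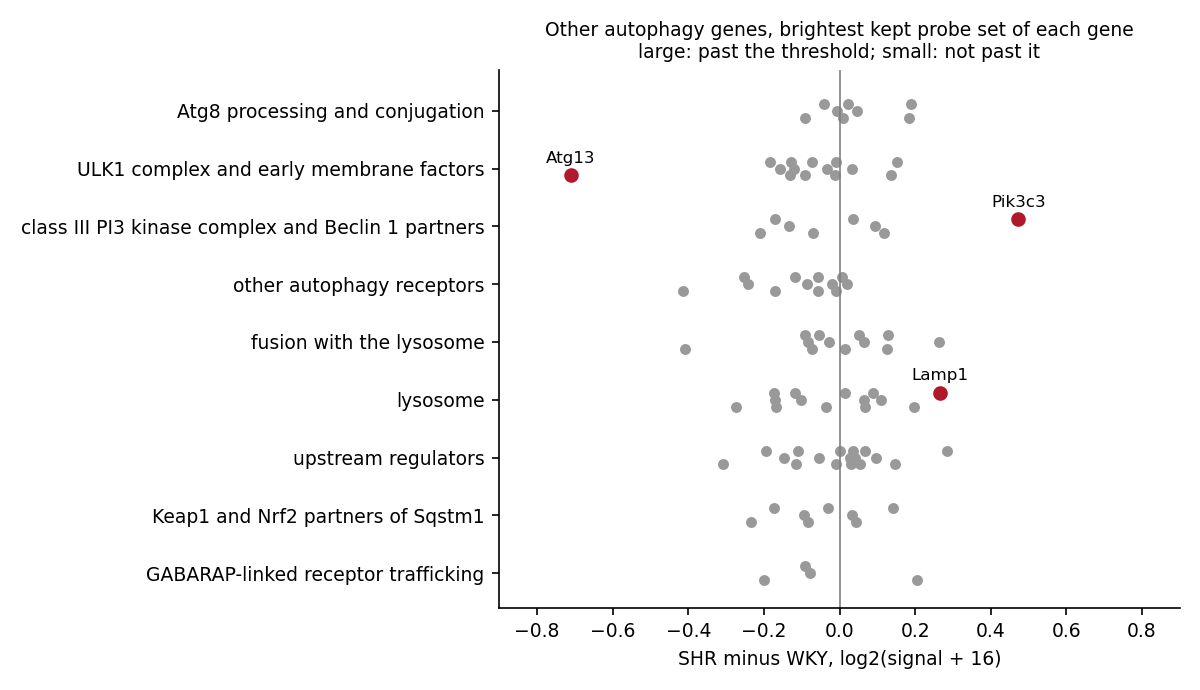
Log2 difference, SHR minus WKY, of 97 other autophagy genes in 9 lists, each point the brightest kept probe set of a gene. Large points passed the threshold: Atg13 at -0.71, Pik3c3 at 0.47 and Lamp1 at 0.265.

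Counts in single lists, here and below, stand beside the 3.97% called over all genes. For lists this short a count of 0 is near that share, and nothing is read from it. Of 8 tested genes of Atg8 processing and conjugation, 0 passed and the median log2 difference was 0.016. The brightest was Atg12, the partner joined to Atg5 (329 ± 20.7 in SHR, 340 ± 22.5 in WKY; limma, adjusted p = 0.755, n = 5 each). Of 14 genes of the ULK1 complex and early membrane factors, 1 fell (Atg13), the median was -0.083 and 3 differences lay above 0. Of 8 genes of the lipid kinase complex and Beclin 1 partners, 1 rose (Pik3c3) and the median was -0.017.

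Of 12 other autophagy receptors 0 passed, with a median of -0.072. Of their 12 differences 2 lay above 0, beside 41 of 97 over the 9 lists, and nothing is read from that. Bnip3, a receptor of mitochondria, was the brightest (826 ± 52.1 in SHR, 879 ± 57.9 in WKY; limma, adjusted p = 0.444, n = 5 each). Of 12 genes of fusion with the lysosome 0 passed by their brightest probe set (median -0.007). The brightest gene, Vps41 of a tethering complex, had 1109 ± 38.1 in SHR and 1099 ± 59.95 in WKY. Vps33a differed by -0.029 log2 units on its brightest probe set (limma, adjusted p = 0.911). A dimmer one passed, at -0.411 (limma, adjusted p = 0.0371), with 95.5 ± 13.9 in SHR and 132 ± 19.9 in WKY (SD, n = 5 each). Its other dimmer kept probe sets had -0.687, -0.179 and -0.02 (limma, adjusted p = 0.0674, 0.385 and 0.938). Of 14 lysosome genes 1 rose (Lamp1), with a median of -0.011.

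Of 17 upstream regulators 0 passed (median 0.027). Rheb, the small GTPase that activates mTOR, was the brightest, at 1301 ± 66.3 in SHR and 1274 ± 65.1 in WKY. Of 8 genes of Keap1, Nrf2 and their targets, which meet autophagy through Sqstm1, 0 passed (median -0.057), and Txnrd1 was at 283 ± 28.3 in SHR and 274 ± 15.5 in WKY. Of 4 genes linked to receptor trafficking by GABARAP 0 passed (median -0.084), with Nsf, the fusion ATPase, at 1085 ± 52.7 in SHR and 1147 ± 98.0 in WKY (SD, n = 5 each). Adjusted p-values of Vps41, Rheb, Txnrd1 and Nsf were 0.910, 0.803, 0.784 and 0.525 in limma.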

How the data were processed

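Total RNA was amplified and hybridised to 1-colour arrays, per the labels' protocols. The authors deposited 1 linear intensity for each probe set and array, for which the submitters' processing notes name GCOS 1.2, and from the values each array was scaled to a mean of about 100 after trimming 2% at each end. Background handling and probe summarisation are steps not given in the sources used here. No signal is therefore called present or absent. The number of arrays limits the precision.

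Strain, read from sample titles, set the groups; the first of each strain has no number and is called 1. The 57 control probe sets were left out. Probe sets at or above the 40th percentile of an array in at least 5 of the 10 arrays were kept. Values of log2(signal + 16), which understate changes of low signals, were fitted with limma 3.58.1 (R 4.3.3; trend), strain as the single term, and p-values adjusted over all 18846 kept probe sets. The fit was checked on data with known changes. It missed many that were about as large as the differences of Pik3c3 and the dimmer Gabarapl1 probe set. A gene that did not pass is therefore not shown to be equal in the strains. Symbols come from the platform annotation (20826 probe sets with 1 gene, 436 with several), updated through Entrez to GRCr8.

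The members and lists were chosen with earlier results of these data known. Named genes were all members, up to 3 called genes a direction in each list or else its brightest gene, and the 3 probe sets most like each Gabarapl1 probe set. Cell type markers past the threshold, and Vps33a for a dimmer probe set past it, are named too, chosen after their values were seen. Alternatives were other scalings, offsets, filters and moderation, weighting of arrays, a block for the replicate number, the median-signal covariate, and arrays left out.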

Additional observations from a re-analysis of the deposited data

Results flagged for a closer look

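Among 40 groups of 5 arrays examined (each member probe set, Atg13, Pik3c3 and Lamp1, in each strain), 1 held an array far from the others by Dixon's criterion, which chance meets in about 1 in 20 groups. It was WKY 2 on the dim Atg5 probe set 1396878_at, at a signal of 26.1, while the other 4 WKY arrays had 17.1 to 19.5; the gap was 0.733 of the range. This probe set was under the filter and entered no comparison.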

How the results depend on the processing

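The count of probe sets past the threshold, 803, became 1214 with a replicate block, 209 with the median-signal covariate and 471 without SHR 2 and SHR 3, and ran from 450 to 945 with 1 array left out. Both Gabarapl1 probe sets passed in each of these fits except the covariate fit, where 1 member probe set passed (1371680_at). The count of other autophagy genes, 3, became 1 (Atg13) with the covariate and 1 (Atg13) without SHR 2 and SHR 3. It was 2 to 4 in the remaining alternatives, in some of which Vamp8, Sesn1 or Vps18 passed. The replicate block ended the call of neither Gabarapl1 probe set and of none of Atg13, Pik3c3 and Lamp1; marker calls were not followed across alternatives. The difference between the Gabarapl1 probe sets within an array was 1.24 and 1.10 with offsets of 1 and 64, and 1.14 to 1.24 with 1 array left out, against 1.2. No called member changed sign in any alternative, while the small differences of both Gabarap probe sets, Map1lc3a, Sqstm1 (1371353_at and 1389381_at) and Atg7 (1392744_at) did in some. Since this contrast chose Gabarapl1, its ranges and signs here describe the effect of processing and add no support. Why the covariate ended calls was not tested; it overlaps with strain. Same-numbered arrays correlated at 0.038 to 0.282 after strain means were taken out. For SHR 1 and 4 a WKY array of another number was closer. For SHR 2, 3 and 5 the same-numbered WKY array was the closest (0.139 against 0.107, 0.134 against 0.111 and 0.282 against 0.188). These values do not settle whether the numbers mark pairs, and the reported fit has no term for them.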
